A study of Mus musculus with 8 samples.

Results

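Sphingolipid and ganglioside metabolism was followed in the mouse brain through 38 genes, taken as the rows of the count table whose gene name stood on a given list of enzymes that make, modify and break down ceramide, sphingomyelin, gangliosides and sulfatide. All 38 were found among the 34299 genes of the table. They comprise 4 genes of de novo long-chain base synthesis, 7 ceramide synthases and dihydroceramide desaturases, 10 genes of glucosylceramide and ganglioside synthesis, 5 of sphingomyelin turnover, 8 of ceramide breakdown and phosphate formation, 2 of myelin galactolipid synthesis and 2 lysosomal hydrolases. Polyadenylated RNA of whole brain was sequenced in 8 libraries. They were 3 wild-type (WT) libraries of fetuses at gestation day 15, 3 libraries of Cav1 knockout (KO) fetuses at gestation day 15, and 2 libraries of Cav1 KO brains at week 70. Cav1 encodes caveolin 1, the coat protein of caveolae, and is knocked out in both KO groups, so that ages were compared within the KO genotype; no WT library of week 70 was analysed here. The labels name no KO line, strain or sex. They call the fetal samples biological replicates and say nothing of this kind about the week 70 pair, so p-values measure the spread between these samples.

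Sphingolipids are built on a long-chain base that serine palmitoyltransferase makes from serine and a fatty acyl-CoA. Acylation and desaturation give ceramide, the branch point from which sphingomyelin, glucosylceramide, galactosylceramide and the phosphates of ceramide and sphingosine are made. Glucosylceramide is extended to lactosylceramide and then to gangliosides, the sialylated glycolipids that are abundant on neurons and change from simple to complex forms as the brain matures, while galactosylceramide and its sulfated form sulfatide are lipids of myelin. Sphingolipids and cholesterol are the main lipids of membrane rafts, of which caveolae are a specialised kind.

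Total counts were 19414747 to 20833397 in the WT libraries, 14110031 to 15245283 in the KO libraries at day 15 and 18924304 to 20203233 at week 70, so that depth separated the fetal genotypes. No batch is recorded, and batch, depth and genotype cannot be told apart. Cav1 had 218 to 367 counts in the WT libraries and 0 to 5 counts in the 5 KO libraries. Mitochondrially encoded genes took 1.26 to 1.35% of counts in WT, 3.30 to 3.87% in KO at day 15 and 4.41 to 5.43% at week 70. Markers of neurons, checked against the brain label, were all detected in each group and summed to 3412 to 4428 CPM (counts scaled to a common library total, with TMM normalisation) at day 15 and 7683 to 8056 at week 70. WT replicate 1 stood apart through fibroblast and meningeal markers, which summed to 4408 CPM there, to 290 and 492 in the other two WT libraries and to 56.2 to 125 in the fetal KO libraries. Its cartilage and bone markers summed to 588 CPM, against 99.4 and 88.2 in the other two and 41.9 to 47.1 in fetal KO, and its skeletal muscle markers to 34.7 CPM, against 2.80 and 2.92 and 1.94 to 7.68. Xist had at least 54531 counts in each fetal library, 7969 in week 70 replicate 1 and 4 in week 70 replicate 2, which held 2219 counts of Y-linked genes, so that at week 70 the library and the sex cannot be told apart.

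At day 15 the ganglioside and sphingomyelin branches were mostly lower in KO than in WT, whereas the entry into the pathway was not. Of the 37 members tested, 16 were called lower and 5 higher, and 16 were not called, where called means an adjusted p under 0.05 in edgeR's quasi-likelihood test. Over all 19147 genes tested, 32.5% were called lower and 30.1% higher, 62.6% in all. The members' median log2 fold change was -0.24, against 0.03 over all genes tested. Of the 16 members called lower, 4 fell by 1 or more on the log2 scale, a size reached by 10.8% of all genes; none of the 5 called higher rose by as much, against 8.53% of all genes. In 25 of the 38 members the CPM of the fetal groups did not overlap, 5 higher and 20 lower in KO, against 68.3% of all genes, 32.1% higher and 36.2% lower. By branch, 7 of 10 ganglioside genes and 4 of 5 sphingomyelin genes were called lower and none higher. In the de novo branch 1 of 4 was called higher and none lower. The 7 ceramide synthases and desaturases split into 2 higher and 2 lower, and the 8 genes of ceramide breakdown and phosphates into 2 higher and 3 lower.

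Between day 15 and week 70, within KO, most branches were higher at week 70. All 38 members were tested, of which 25 were called higher and 7 lower and 6 were not called; over all 20000 genes tested 37.6% were called higher and 44.4% lower, 82% in all. Fa2h, 1 of the 25, passed the filter on low counts through week 70 alone and had to differ. The members' median log2 fold change was 0.73, against -0.19 over all genes. A rise of 1 or more on the log2 scale was called for 17 members, against 26.2% of all genes, and a fall of that size for 4 members, against 34.3% of all genes. Rises were called for 9 of 10 ganglioside genes, 4 of 5 sphingomyelin genes, 4 of 8 genes of ceramide breakdown and phosphates, both myelin galactolipid genes and 1 of 2 lysosomal hydrolases. The CPM of the 2 ages did not overlap for 27 members that were higher and 7 that were lower at week 70, against 87.9% of all genes, 42.3% higher and 45.6% lower. The exceptions were the earliest steps, with 2 rises and 2 falls in the de novo branch, and 3 rises against 4 falls among ceramide synthases and desaturases. The 2 comparisons share the KO libraries of day 15, so their values are given side by side and not as support for each other. In whole-brain RNA, fewer cells of a type and less RNA per cell cannot be told apart.

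Marker levels of several cell types moved with age beside these rises. Astrocyte markers summed to 111 to 124 CPM in fetal KO and to 2345 to 2379 at week 70. Microglial markers summed to 34.5 to 36.6 and 441 to 537 CPM, and endothelial markers to 50.8 to 65.9 and 292 to 319 CPM. All 6 markers of each of these 3 lists were called higher at week 70 and detected in each group. Progenitor markers were the reverse, with 1111 to 1209 CPM in fetal KO and 224 to 241 at week 70, 5 of 6 called lower and 1 higher. Neuronal markers summed to 3412 to 3516 CPM in fetal KO and 7683 to 8056 at week 70, yet 3 were called higher and 3 lower. Their median log2 fold change was -0.18. The part of these cells in the rises of the ganglioside, sphingomyelin, ceramide and lysosomal genes was not tested.

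**Figure D1:**
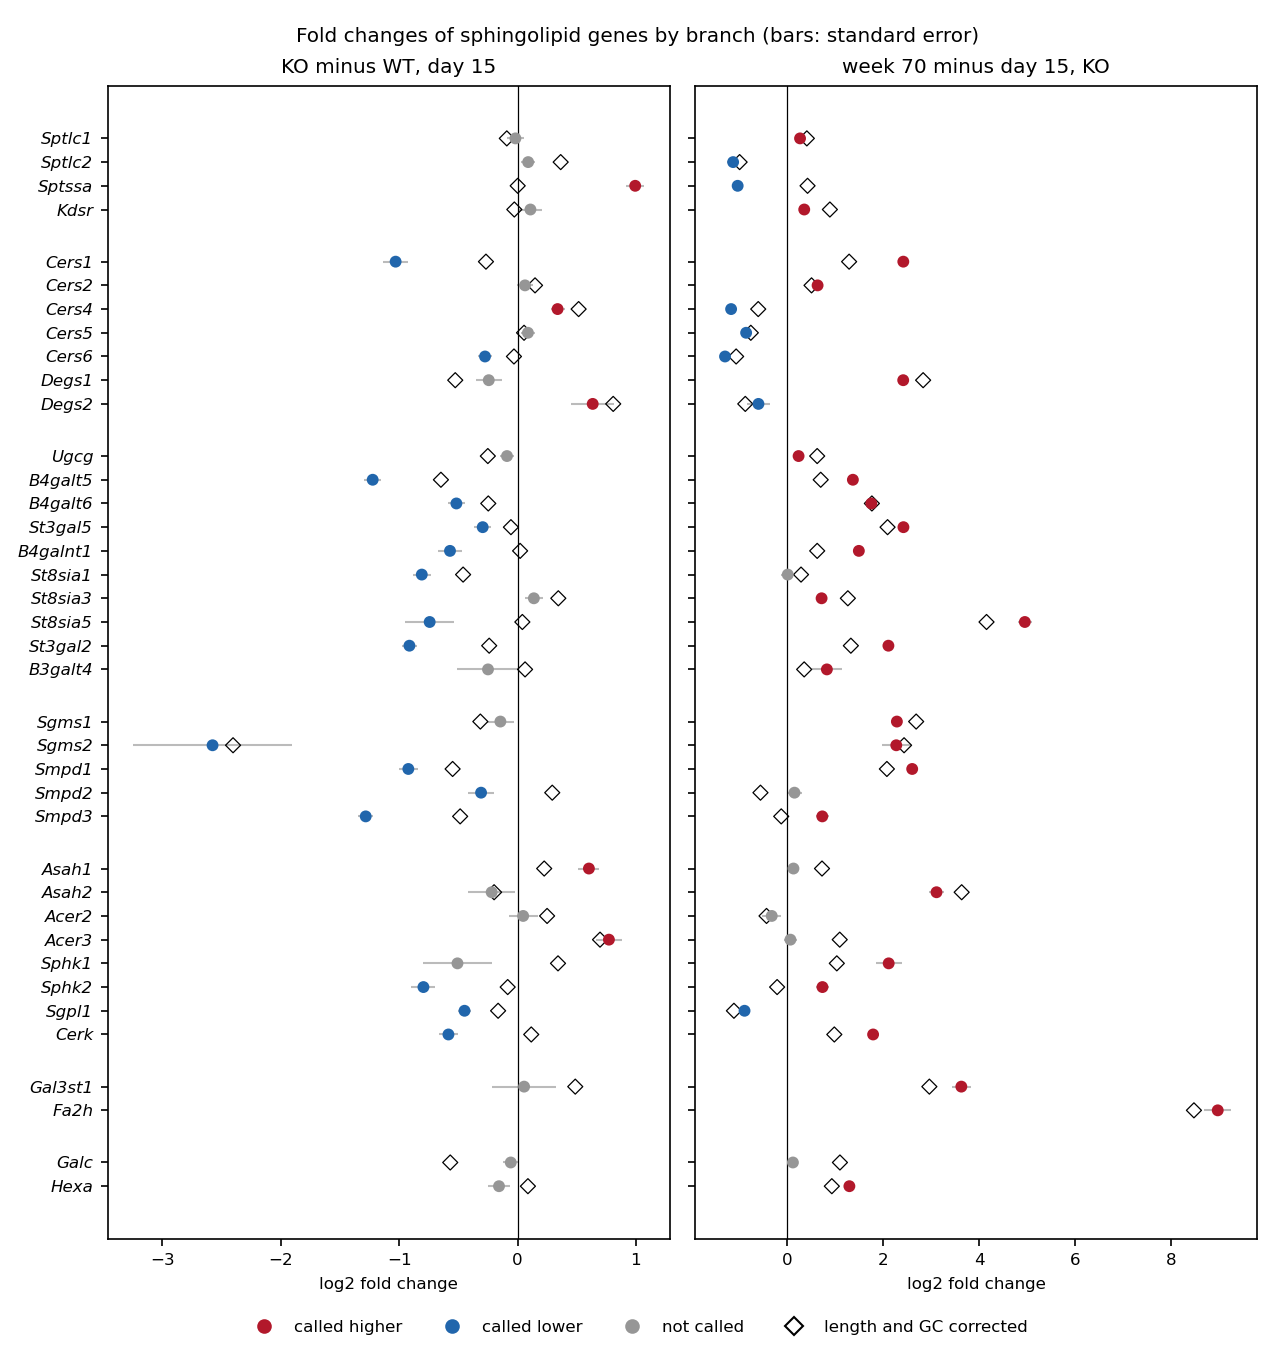
Log2 fold change of each member by branch, KO minus WT at day 15 on the left and week 70 minus day 15 within KO on the right; circles are the fitted values with their standard errors as bars, coloured by the call at an adjusted p under 0.05, and open diamonds are the values after correction for transcript length and GC content. On the left 16 members are called lower and 5 higher, with Sgms2 at -2.58 the lowest; on the right 25 are called higher and 7 lower, with Fa2h at 8.98 the highest.

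The fetal fold changes went with the base composition of the transcripts, and part of the fall of these branches went with it too. Across the 37 members tested, the KO minus WT log2 fold change had a Spearman rho of -0.56 with the GC content of the longest annotated transcript and of -0.09 with its length; over all genes tested the rho with GC content was -0.48. These are descriptions over genes that share the same libraries. After each library's trend on length and GC content was removed, the rho over the members was 0.06, and 6 members were called higher and 13 lower, against 26% and 25.1% of all genes in that fit. The corrected median was -0.03 over all members, -0.15 over the ganglioside genes and -0.48 over the sphingomyelin genes. With upper-quartile scaling, which moved the median of all genes by 0.17 at day 15 and by -0.25 in the comparison of ages, 10 members were called higher and 13 lower at day 15 (39.8% and 25.7% of all genes) and 21 higher and 8 lower at week 70 (32.4% and 49.8%). In the comparison of ages the rho with GC content was 0.46 over the 38 members and 0.28 over all genes, and the correction left 26 members called higher and 7 lower, against 39.6% and 39.2% of all genes. The source of the trend on GC content was not tested.

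**Figure D2:**
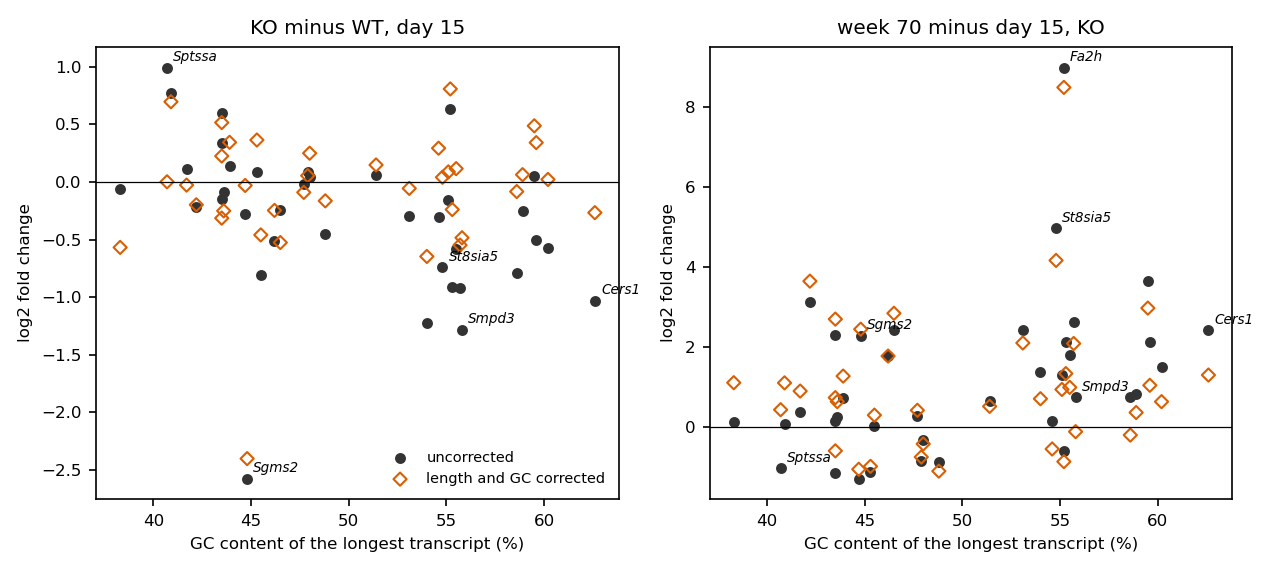
Log2 fold change of each member against the GC content of its longest annotated transcript in percent, KO minus WT at day 15 on the left and week 70 minus day 15 in KO on the right; filled circles are uncorrected and open diamonds corrected for length and GC content, and each gene has both. On the left the filled circles slope downwards (Spearman rho -0.56, 37 genes) and the diamonds do not (0.06); on the right the filled circles slope upwards (0.46, 38 genes).

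Promoter sequence is shown for 4 of the genes that the branches turn on: B4galt5 and Smpd1, which were lower in fetal KO and higher at week 70, Sptssa, which did the reverse, and Degs1, the desaturase that rose at week 70. Each run is the 250 bases before the start of transcription given by RefSeq on GRCm38.p6, 5′ to 3′ on the strand of the gene, in lower case, with GC boxes (GGGCGG on either strand) and CCAAT boxes (CCAAT on either strand) in capitals; neighbouring GC boxes can overlap.
B4galt5 (chr2:167349179-167349428, strand -): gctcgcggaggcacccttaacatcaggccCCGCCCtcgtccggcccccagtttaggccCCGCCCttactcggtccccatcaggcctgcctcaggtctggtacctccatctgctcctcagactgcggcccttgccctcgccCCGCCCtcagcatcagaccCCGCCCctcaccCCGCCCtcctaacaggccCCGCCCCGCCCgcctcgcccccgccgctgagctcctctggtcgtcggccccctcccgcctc
Smpd1 (chr7:105554110-105554359, strand +): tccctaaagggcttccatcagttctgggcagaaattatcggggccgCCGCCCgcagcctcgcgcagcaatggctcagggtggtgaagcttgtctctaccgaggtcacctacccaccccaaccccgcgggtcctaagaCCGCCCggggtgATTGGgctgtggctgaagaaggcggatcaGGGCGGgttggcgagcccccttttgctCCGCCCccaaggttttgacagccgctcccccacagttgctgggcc
Sptssa (chr12:54656573-54656822, strand -): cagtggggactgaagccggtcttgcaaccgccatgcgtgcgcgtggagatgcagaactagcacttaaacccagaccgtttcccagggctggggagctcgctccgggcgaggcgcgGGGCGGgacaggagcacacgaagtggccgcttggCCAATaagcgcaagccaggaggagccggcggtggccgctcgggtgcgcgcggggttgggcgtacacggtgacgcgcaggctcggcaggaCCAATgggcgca
Degs1 (chr1:182282196-182282445, strand -): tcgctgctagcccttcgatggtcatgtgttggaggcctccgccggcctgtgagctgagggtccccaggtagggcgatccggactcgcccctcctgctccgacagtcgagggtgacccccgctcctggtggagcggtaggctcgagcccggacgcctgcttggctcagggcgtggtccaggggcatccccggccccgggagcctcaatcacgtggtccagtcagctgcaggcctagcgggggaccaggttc
The B4galt5 window holds 7 GC boxes and no CCAAT box, the Smpd1 window 4 GC boxes and 1 CCAAT box, the Sptssa window 1 GC box and 2 CCAAT boxes, and the Degs1 window neither. The Degs1 window lies inside the gene as annotated by GENCODE (chr1:182275772-182282804, minus strand), downstream of the start given there. RefSeq promoters were matched to 30 of the 38 members, with 47 windows because some genes have several starts. A GC box stood in 57.4% of the member windows and in 32.7% of all 32851 windows of the same length, a CCAAT box in 36.2% and 33.8%, and a TATA box (TATAAA on either strand) in 2.1% and 12.4%. The median GC content was 61.6% in the member windows and 52.4% in all windows. A match describes letters and not a bound site.

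At the entry into the pathway, 1 small subunit differed at day 15 and the catalytic subunits did not pass the test, though with upper-quartile scaling 3 of the 4 genes were called higher. Sptssa, an activating small subunit of serine palmitoyltransferase (ENSMUSG00000044408, chr12:54645392-54656573, minus strand on GRCm38, as for all coordinates here), had 42.2, 36.6 and 43.2 CPM in WT and 74.4, 78.2 and 83.8 in KO at day 15. The week 70 libraries held 38.9 and 43.7 CPM. Every fetal KO library was above every WT library, and the week 70 libraries lay within and just above the WT range. The fetal difference was a 1.99-fold rise in KO (log2 fold change 0.99 ± 0.08, adjusted p = 1.26e-06, where ± is the standard error here and in all log2 fold changes that follow). Week 70 was lower than day 15 in KO (log2 fold change -1.03 ± 0.10, adjusted p = 3.61e-06). With the correction for length and GC content the fetal value was 0.0015 and not called. The change with age turned to 0.42 and was called higher, so that neither direction is independent of the correction. The catalytic subunits Sptlc1 and Sptlc2 had log2 fold changes of -0.02 and 0.09 between the fetal groups. Kdsr, which reduces the first product to dihydrosphingosine, had 0.11. None of the 3 was called. Sptlc2 was called higher after the correction, at 0.36, and with upper-quartile scaling, at 0.26 (adjusted p = 0.00364), as was Kdsr with that scaling, at 0.28 (adjusted p = 0.0266). Sptlc2 moved furthest of this branch with age and had 69.1, 65.1 and 66.6 CPM in WT and 69.8, 65.0 and 73.1 in KO at day 15. At week 70 it had 29.4 and 38.6 CPM. Both week 70 libraries were below all 6 fetal libraries (log2 fold change -1.13 ± 0.12, adjusted p = 9.65e-06 against KO at day 15). Sptlc1 (log2 fold change 0.27 ± 0.10, adjusted p = 0.0241) and Kdsr (0.35 ± 0.10, adjusted p = 0.00683) were called higher at week 70 by smaller amounts. Sptlc1 lost its call without KO day 15 replicate 1 or 2 or week 70 replicate 2 (adjusted p 0.0547, 0.0710 and 0.0639). With upper-quartile scaling neither was called, at 0.02 and 0.10 (adjusted p 0.871 and 0.348), and after the correction both were, at 0.41 and 0.89. With DESeq2 Sptlc1 was not called (adjusted p = 0.115).

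Ceramide synthases, which differ in the fatty acid they attach, did not move as a group in either comparison. Cers1, the neuronal synthase with a preference for C18 acyl chains, had 25.6, 25.3 and 27.1 CPM in WT and 13.6, 13.0 and 10.6 in KO at day 15. Its week 70 values were 71.6 and 70.6 CPM. The fetal KO libraries were all below the WT libraries and both week 70 libraries were above all fetal libraries. Cers1 was 2.04-fold lower in fetal KO than in WT (log2 fold change -1.03 ± 0.11, adjusted p = 1.19e-05). It was 5.35-fold higher at week 70 than at day 15 in KO (log2 fold change 2.42 ± 0.12, adjusted p = 1.34e-08). Corrected for length and GC content the values were -0.27 and 1.29, both still called. Cers1 and Gdf1, a growth factor gene on the same strand, share 42.5% of the exonic bases of Cers1, and the counts cannot be divided between them; Gdf1 was not analysed here. Cers4 was 0.34 higher in fetal KO on the log2 scale (adjusted p = 0.000532) and Cers6 fell by 0.27 (adjusted p = 0.00187), the latter without a call after the correction (-0.03). Cers2, the synthase of very-long-chain ceramides, and Cers5 differed by 0.06 and 0.09 and were not called. With upper-quartile scaling both were called higher, at 0.24 and 0.26, and Cers6 was not called, at -0.10.

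With age the synthases parted. Cers1 and Cers2 rose, Cers2 by 0.63 (adjusted p = 3.19e-05), and Cers4, Cers5 and Cers6 were called lower, with log2 fold changes of -1.17, -0.86 and -1.30. Cers4 was -0.60 after the correction, and Cers2 was 0.38 with upper-quartile scaling, both still called. Cers6 had 115, 115 and 124 CPM in WT and 95.9, 92.1 and 97.6 in KO at day 15. Week 70 samples showed 43.9 and 39.0 CPM. The 3 groups did not overlap for Cers6, with WT highest and week 70 lowest. Among the desaturases, which turn dihydroceramide into ceramide, Degs1 had 26.3, 20.4 and 22.7 CPM in WT and 19.8, 20.1 and 17.2 in KO at day 15. The week 70 libraries held 112 and 106 CPM. Both week 70 libraries stood far above every fetal library (log2 fold change 2.42 ± 0.10, adjusted p = 3.38e-09, a 5.35-fold rise). The fetal value was -0.24 and not called, but was called at -0.33 without WT replicate 2 (adjusted p = 0.0311) and at -0.53 after the correction. Degs2, which also hydroxylates the base to phytoceramide, had 3.74, 4.40 and 3.32 CPM in WT and 6.07, 4.95 and 6.32 in KO at day 15. At week 70 it had 4.02 and 4.14 CPM. It was called higher in fetal KO (log2 fold change 0.64 ± 0.18, adjusted p = 0.0114) and lower at week 70 (log2 fold change -0.60 ± 0.23, adjusted p = 0.0344). The Degs2 call at week 70 was lost without KO day 15 replicate 1 or 3 or week 70 replicate 1 (adjusted p 0.106, 0.102 and 0.0613) and with DESeq2 (adjusted p = 0.0536). Degs2 overlaps the far more abundant Evl on the opposite strand over 10.8% of its exonic bases, with 43400 counts for Evl and 653 for Degs2 over the 8 libraries. The sources do not say whether strand was used in counting.

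From lactosylceramide synthesis onwards most ganglioside enzymes were lower in fetal KO brains, with B4galt5 showing the largest fall and St3gal5 the smallest that was called. After the correction for length and GC content 5 of the 10 were called lower, namely Ugcg, B4galt5, B4galt6, St8sia1 and St3gal2, and St8sia3 was called higher at 0.34. With upper-quartile scaling 6 were called lower and 1 higher. Ugcg, which commits ceramide to glucosylceramide, had 82.0, 85.03 and 85.05 CPM in WT and 80.4, 76.0 and 74.3 in KO at day 15; all KO libraries were lower, at -0.09 on the log2 scale, which was not called. With age Ugcg was called higher (0.24 ± 0.08, adjusted p = 0.0229), but not without KO day 15 replicate 2 or week 70 replicate 2 (adjusted p 0.0833 and 0.0923), with upper-quartile scaling (-0.013) or with DESeq2 (adjusted p = 0.0753); the corrected value was 0.62 and called. B4galt5 and B4galt6 add galactose to make lactosylceramide. B4galt5 (ENSMUSG00000017929, chr2:167298444-167349183, minus strand) had 60.3, 58.6 and 63.8 CPM in WT and 26.1, 26.8 and 23.1 in KO at day 15. Its week 70 values were 65.2 and 75.1 CPM. The fetal KO libraries lay at less than 27 CPM and all other libraries at more than 58 CPM. The fall at day 15 was 2.34-fold (log2 fold change -1.22 ± 0.07, adjusted p = 2.4e-07) and remained called after the correction (-0.65). The rise to week 70 was 2.58-fold (log2 fold change 1.37 ± 0.10, adjusted p = 5.51e-07; corrected 0.70). B4galt6 had 73.4, 72.7 and 86.1 CPM in WT and 51.6, 53.3 and 53.0 in KO at day 15. Week 70 samples showed 166 and 215 CPM. The fetal KO libraries were lowest and week 70 highest. Its log2 fold changes were -0.52 ± 0.07, adjusted p = 0.000139 at day 15 (corrected -0.25, called) and 1.75 ± 0.11, adjusted p = 1.14e-07 with age.

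Downstream of lactosylceramide the first sialyltransferases and the GM2/GD2 synthase were lower in fetal KO and, St8sia1 aside, higher at week 70. St3gal5, the GM3 synthase that opens the ganglioside series, had 38.9, 39.9 and 40.4 CPM in WT and 30.2, 33.0 and 31.4 in KO at day 15. The week 70 libraries held 189 and 174 CPM. Its fetal fall was small (log2 fold change -0.29 ± 0.07, adjusted p = 0.00392; corrected -0.06, and -0.12 with upper-quartile scaling, neither called). Its rise with age was 5.36-fold (log2 fold change 2.42 ± 0.09, adjusted p = 1.88e-09). St8sia1, the GD3 synthase that opens the b-series, had 106, 127 and 117 CPM in WT and 63.3, 66.1 and 64.7 in KO at day 15. At week 70 it had 55.2 and 84.6 CPM. It was lower in every fetal KO library (log2 fold change -0.81 ± 0.08, adjusted p = 5.35e-06; corrected -0.46, still called). It was the 1 ganglioside gene with no call for age (log2 fold change 0.01 ± 0.15, adjusted p = 0.947), the 2 week 70 libraries lying on either side of the fetal KO range. Without week 70 replicate 1 the age value was 0.30 and called higher (adjusted p = 0.0143), and without replicate 2 it was -0.33 and called lower (adjusted p = 0.0117). B4galnt1, which makes GM2 and GD2, had 48.9, 51.8 and 58.5 CPM in WT and 38.3, 36.7 and 29.4 in KO at day 15. Its week 70 values were 106 and 104 CPM. It was lower in fetal KO (log2 fold change -0.57 ± 0.10, adjusted p = 0.00072), with no difference called after the correction (0.02). It was higher at week 70 (log2 fold change 1.49 ± 0.11, adjusted p = 4.23e-07; corrected 0.63, called). It shares 20.7% of its exonic bases with Slc26a10 on the opposite strand, which had 356 counts over all libraries against 8159 for B4galnt1.

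Among the remaining sialyltransferases St8sia5 had the largest fold change with age. St3gal2, which caps complex gangliosides with sialic acid, had 82.3, 84.9 and 84.7 CPM in WT and 47.1, 41.9 and 41.3 in KO at day 15. Week 70 samples showed 222 and 179.6 CPM. It fell 1.88-fold in fetal KO (log2 fold change -0.91 ± 0.06, adjusted p = 6.69e-07; corrected -0.24, called). It rose 4.32-fold with age (log2 fold change 2.11 ± 0.11, adjusted p = 2.2e-08; corrected 1.33, called). St8sia5, which adds the alpha-2,8-linked sialic acid of the most highly sialylated gangliosides, had 3.65, 3.20 and 3.77 CPM in WT and 2.43, 1.78 and 1.97 in KO at day 15. The week 70 libraries held 66.2 and 70.8 CPM. Both week 70 libraries were more than 60 CPM above every fetal library. The fold change with age was the largest of the branch (log2 fold change 4.96 ± 0.14, adjusted p = 3.48e-10, a 31.0-fold rise; corrected 4.16), while St3gal2, St3gal5, B4galt6 and B4galnt1 gained more CPM. Its fetal levels were low, and the difference between genotypes (log2 fold change -0.74 ± 0.21, adjusted p = 0.0092) was 0.04 and not called after the correction. St8sia3, a sialyltransferase of neural tissue, differed by 0.14 at day 15 (not called) and rose by 0.72 with age (corrected 1.26, and 0.47 with upper-quartile scaling). B3galt4, the GM1/GD1b synthase, had at most 8.05 CPM in any library, was not called at day 15 (-0.25) and was called higher with age (log2 fold change 0.83 ± 0.32, adjusted p = 0.0331). The latter call was lost when KO day 15 replicate 2 or 3 or week 70 replicate 1 was left out (adjusted p 0.119, 0.125 and 0.148). It was also lost after the correction, at 0.35, with upper-quartile scaling, at 0.58, and with DESeq2, at 0.79. At day 15 it was called lower without KO replicate 1, at -0.62 (adjusted p = 0.0473).

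**Figure D3:**
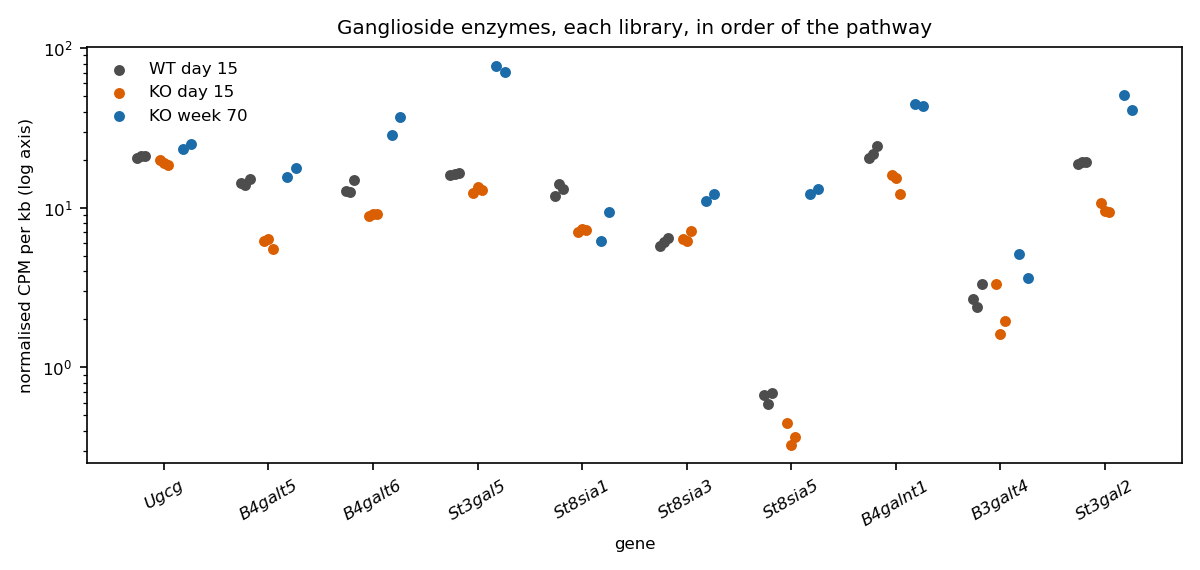
Normalised CPM per kilobase of the longest annotated transcript (log axis) for the 10 ganglioside genes in the order of the pathway; each point is 1 library, grey for WT at day 15, orange for KO at day 15 and blue for KO at week 70. The orange points lie below the grey ones for 8 of the 10 genes, and the blue points above all others for 9 of the 10, St8sia1 being the exception.

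Taken per kilobase of transcript, the order of these 10 genes changed between the fetal brains and week 70. In WT fetuses the highest were B4galnt1 with 22.2 CPM per kb, Ugcg with 20.9 and St3gal2 with 19.1. B4galnt1 ranged over 48.9 to 58.5 CPM in the 3 WT libraries, so that these neighbours in the order are not separated beyond their spread. The lowest were B3galt4 with 2.80 and St8sia5 with 0.652 CPM per kb. At week 70 St3gal5 was the highest with 74.3 CPM per kb, followed by St3gal2 with 45.7 and B4galnt1 with 43.8, which did not differ beyond the spread of the St3gal2 libraries. St8sia5 with 12.6 CPM per kb stood above St8sia3 with 11.5 and St8sia1 with 7.78, whereas in the WT fetuses St8sia1 led these 3 with 13.0 CPM per kb.

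Beside these falls in fetal KO, marker levels of several cell types also differed between the genotypes. Summed endothelial markers were 171 to 235 CPM in WT and 50.8 to 65.9 in KO, with all 6 markers called lower. Astrocyte markers summed to 236 to 273 CPM in WT and 111 to 124 in KO, with 3 of 6 called lower and 1 higher. Levels of both lists were lower in every KO library. Neuronal markers summed to 3983 to 4428 and 3412 to 3516 CPM, with 3 called lower and 3 higher. Progenitor markers summed to 1262 to 1335 CPM in WT and 1111 to 1209 in KO, with 5 of 6 called lower and 1 higher. Erythroid markers were the reverse, with 954 to 1235 CPM in WT and 3569 to 4380 in KO and 6 of 6 called higher. Every marker of these lists was detected in each group. The part of these cells in the ganglioside and sphingomyelin results was not tested.

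Sphingomyelin turnover was the branch with the lowest fetal median, at -0.92 over its 5 genes. Sphingomyelin synthases move phosphocholine onto ceramide, and sphingomyelinases take it off again. Smpd3, the neutral sphingomyelinase 2 of neurons, had 139.5, 138 and 143 CPM in WT and 57.9, 59.4 and 51.2 in KO at day 15. At week 70 it had 116 and 83.8 CPM. All WT libraries were at least 138 CPM and all fetal KO libraries below 60 (log2 fold change -1.28 ± 0.06, adjusted p = 7.43e-08, a 2.43-fold fall; corrected -0.48, called). It was called higher at week 70 (log2 fold change 0.73 ± 0.13, adjusted p = 0.000398), with -0.12 and no call after the correction, and both week 70 libraries stayed below WT. Smpd1, the lysosomal acid sphingomyelinase whose loss causes Niemann-Pick disease, had 45.9, 43.7 and 50.2 CPM in WT and 25.5, 23.0 and 23.3 in KO at day 15. Its week 70 values were 163 and 149.6 CPM. It was 1.90-fold lower in fetal KO (log2 fold change -0.92 ± 0.08, adjusted p = 2.84e-06; corrected -0.55, called). It was 6.09-fold higher at week 70 (log2 fold change 2.61 ± 0.09, adjusted p = 1.27e-09). Smpd2 was called lower at day 15 (log2 fold change -0.31 ± 0.11, adjusted p = 0.0296) but turned to 0.29 and was called higher after the correction. With age it was not called (0.15). Its fetal call was lost with upper-quartile scaling (-0.14), and without WT replicate 2 or 3 or KO replicate 2 or 3 (adjusted p 0.0553, 0.05005, 0.0864 and 0.106). Smpd2 shares 20.3% of its exonic bases with Mical1 on the opposite strand.

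Both synthases of sphingomyelin had negative fetal log2 fold changes, of which only that of Sgms2 was called. After the correction both were called lower, Sgms2 at -2.40. Whether they differed from each other was not tested. Sgms1, the Golgi enzyme, had 13.0, 11.6 and 11.4 CPM in WT and 9.65, 11.4 and 10.7 in KO at day 15. Week 70 samples showed 56.1 and 54.5 CPM. Its fetal difference of -0.14 was not called (-0.31 and called after the correction). It rose 4.88-fold with age (log2 fold change 2.29 ± 0.11, adjusted p = 1.54e-08). Sgms2, the plasma membrane enzyme, had 17.6, 3.65 and 2.41 CPM in WT and 1.58, 1.06 and 1.22 in KO at day 15. The week 70 libraries held 5.54 and 7.80 CPM. WT replicate 1 was far above the other two WT libraries, which were themselves above the KO libraries. With all libraries the fetal fall of Sgms2 was the largest of the members (log2 fold change -2.58 ± 0.67, adjusted p = 0.00656). Without WT replicate 1 it was -1.22 (adjusted p = 0.0039), and Smpd3 and B4galt5 then fell further, by 1.31 and 1.25. WT replicate 1 was also the library with the highest sum of fibroblast and meningeal markers (4408 CPM, against 290 and 492 in the other two), 4 of which were called lower in KO and none higher. It was highest in cartilage and bone markers and in skeletal muscle markers as well, as given above. The part of such cells in the Sgms2 value was not tested. At week 70 Sgms2 was higher than in fetal KO (log2 fold change 2.27 ± 0.30, adjusted p = 4.19e-05). Fibroblast and meningeal markers summed to 69.9 to 91.1 CPM at week 70 and to 56.2 to 125 CPM in fetal KO. Skeletal muscle markers summed to 18.6 to 25.3 and 1.94 to 7.68 CPM, and cartilage and bone markers to 6.93 to 9.86 and 41.9 to 47.1 CPM. The part of such cells in the rise of Sgms2 was not tested either.

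**Figure D4:**
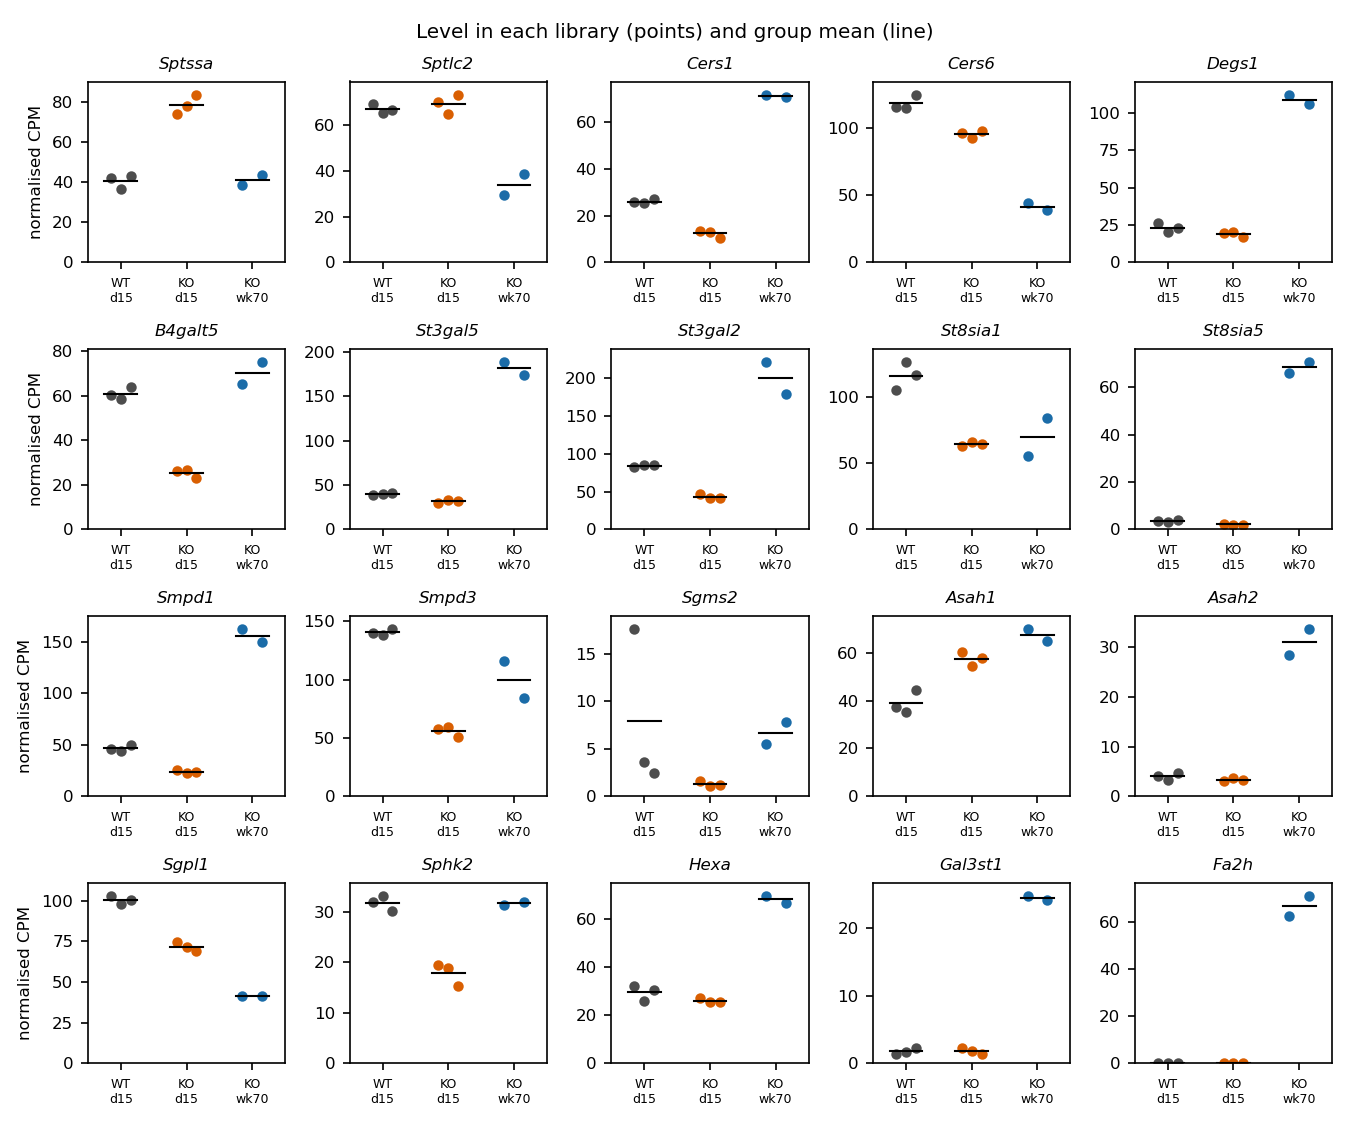
Normalised CPM (linear axis from 0) of 20 members in each library, with a line at the mean of each group; grey points are WT at day 15 (n = 3), orange KO at day 15 (n = 3) and blue KO at week 70 (n = 2). B4galt5, Smpd1, Smpd3, St3gal2 and Cers1 are lowest in fetal KO, Sptssa is highest there, Cers6, Sptlc2 and Sgpl1 are lowest at week 70, and Fa2h is near 0 in all 6 fetal libraries.

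Ceramidases release sphingosine from ceramide, and 2 of the 4 were higher in fetal KO. Asah1, the lysosomal acid ceramidase, had 37.1, 35.1 and 44.5 CPM in WT and 60.1, 54.5 and 57.9 in KO at day 15. At week 70 it had 69.9 and 64.9 CPM. All KO libraries exceeded WT (log2 fold change 0.60 ± 0.09, adjusted p = 0.000165), with 0.23 and no call after the correction. Acer3, an alkaline ceramidase, was called higher with (0.70) and without the correction (0.77 ± 0.11, adjusted p = 0.000115). The rises of the Asah1 and Acer3 transcripts were opposite in sign to the falls of Smpd1 and Smpd3, which supply ceramide from sphingomyelin. Asah1 and Acer3 also have a lower GC content (43.5% and 40.9%) than Smpd1 and Smpd3 (55.7% and 55.8%). Acer2 was not called at day 15, at 0.05. Ceramide itself was not measured. Asah2, the neutral ceramidase, had 4.12, 3.20 and 4.68 CPM in WT and 3.03, 3.73 and 3.25 in KO at day 15. Its week 70 values were 28.4 and 33.7 CPM. It was not called between the fetal groups (-0.22), and week 70 was 8.65-fold higher than day 15 in KO (log2 fold change 3.11 ± 0.16, adjusted p = 2.69e-08). Asah1, Acer2 and Acer3 were not called with age, at 0.13, -0.32 and 0.07, though Acer2 was without week 70 replicate 1 (-0.62, adjusted p = 0.00842) and with upper-quartile scaling (-0.57, adjusted p = 0.0204). After the correction Asah1 and Acer3 were called higher, at 0.73 and 1.09.

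Sphingosine kinases make sphingosine 1-phosphate, a ligand of receptors on vessels and lymphocytes, and the lyase Sgpl1 destroys it. Sphk2 had 31.9, 33.1 and 30.1 CPM in WT and 19.4, 18.8 and 15.2 in KO at day 15. Week 70 samples showed 31.4 and 32.0 CPM. It was lower in all fetal KO libraries (log2 fold change -0.79 ± 0.10, adjusted p = 5.68e-05) and higher at week 70 (log2 fold change 0.73 ± 0.13, adjusted p = 0.00035). Neither was called after the correction (-0.08 and -0.21). Sphk2 overlaps Dbp over 13.0% and Rpl18 over 9.0% of its exonic bases on the opposite strand. Sphk1 had at most 9.24 CPM, was not called at day 15 (-0.51) and rose with age (log2 fold change 2.12 ± 0.27, adjusted p = 3.62e-05; corrected 1.03, called). Sgpl1 had 103, 97.9 and 100.5 CPM in WT and 74.8, 71.4 and 68.7 in KO at day 15. The week 70 libraries held 41.4 and 41.5 CPM. The 3 groups did not overlap, with a fall in fetal KO (log2 fold change -0.45 ± 0.05, adjusted p = 3.48e-05) and a further fall at week 70 (log2 fold change -0.89 ± 0.09, adjusted p = 3.99e-06). Both remained called after the correction (-0.16 and -1.11). Cerk, which phosphorylates ceramide, fell in fetal KO (-0.58 ± 0.08, adjusted p = 7.34e-05; corrected 0.12, not called) and rose with age (1.79 ± 0.10, adjusted p = 3.08e-08; corrected 0.98, called).

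The genes of myelin galactolipids had low counts in the fetus and many more at week 70. Fa2h, which hydroxylates the fatty acid of myelin galactolipids, had 3, 5 and 3 counts in the WT libraries, 4, 0 and 2 in fetal KO, and 947 and 1030 at week 70. Because the fetal counts were too few, it was not tested between the fetal groups, and a library with 0 counts allows up to 0.197 CPM. Between the KO groups the ratio of its counts per total count was 370.9, with an exact 95% interval of 170.1 to 1012 that covers counting error only. Fa2h entered the comparison of ages through its week 70 counts alone, so that its call there is no support. Gal3st1, which sulfates galactosylceramide to sulfatide, had 1.40, 1.75 and 2.31 CPM in WT and 2.24, 1.84 and 1.45 in KO at day 15. At week 70 it had 24.8 and 24.2 CPM. The fetal groups overlapped (log2 fold change 0.06 ± 0.27, adjusted p = 0.87). Week 70 was 12.4-fold above fetal KO (log2 fold change 3.63 ± 0.20, adjusted p = 3.37e-08). Oligodendrocyte and myelin markers moved with both genes with age: their sum was 101 to 113 CPM in WT, 85.8 to 89.1 in fetal KO and 13660 to 13803 at week 70. Between the fetal groups, 3 of the 7 markers tested were called higher in KO and 3 lower (median log2 fold change 0.32). All 8 markers were called higher at week 70 and detected in each group. Of these, Mobp had 2, 5 and 3 counts in fetal KO, passed the filter through week 70 alone and had to differ. The part of the number of oligodendrocytes in the rise of Fa2h and Gal3st1 was not tested.

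Of the 2 lysosomal hydrolases, Hexa, the alpha subunit of the hexosaminidase that degrades GM2, had 32.4, 26.1 and 30.7 CPM in WT and 27.1, 25.4 and 25.5 in KO at day 15. Its week 70 values were 69.8 and 66.8 CPM. It was not called between the fetal groups (log2 fold change -0.16 ± 0.09, adjusted p = 0.152; -0.25 and called lower without WT replicate 2, adjusted p = 0.0369). It was 2.46-fold higher at week 70 (log2 fold change 1.30 ± 0.09, adjusted p = 2.29e-07). Galc, which degrades galactosylceramide, had log2 fold changes of -0.06 at day 15 and 0.12 with age; neither was called, but after the correction for length and GC content both were, at -0.57 and 1.10. Galc has the lowest GC content of the members, 38.3%.

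Genes of related activity were grouped into families, whose members can differ in substrate, product or site in the cell. A shift in shares need not be a replacement within the same reaction. Shares of the family total, counted per kilobase of transcript, are free of the scaling of library sizes. They were not corrected for the trend on GC content, with which the fetal log2 fold change of Cers1 went from -1.03 to -0.27 and those of B4galt5 and B4galt6 from -1.22 and -0.52 to -0.65 and -0.25. Lactosylceramide synthase counts were split 47.9% ± 1.37 to B4galt6 in WT (SD, n = 3), 60.1% ± 1.99 in fetal KO (n = 3) and 66.1% ± 1.83 at week 70 (n = 2). B4galt6 thus took the larger share in both KO groups and the WT split was near even. Among the alpha-2,8-sialyltransferases St8sia1 held 65.6% ± 1.88 in WT, 51.0% ± 2.01 in fetal KO and 24.1% ± 4.45 at week 70. At week 70 St8sia5 held 39.6% ± 2.73, against 3.32% ± 0.444 and 2.69% ± 0.466 in the fetal groups. St8sia3 held 31.1% ± 1.46 in WT, 46.3% ± 1.98 in fetal KO and 36.2% ± 1.72 at week 70. St8sia1 thus held most of the family in WT, St8sia1 and St8sia3 were close in fetal KO, and St8sia5 joined them at week 70. Among the ceramide synthases Cers1 held 11.8% ± 0.292 in WT, 5.98% ± 0.720 in fetal KO and 29.2% ± 0.192 at week 70. Cers6 held 20.8% ± 0.708, 17.8% ± 0.661 and 6.60% ± 0.441. Cers1 was thus the lesser of these 2 in the fetus and the greater at week 70. Smpd1 made up 38.05% ± 1.28 of the sphingomyelinase counts in WT, 41.2% ± 1.85 in fetal KO and 73.7% ± 2.77 at week 70, and Smpd3 53.8% ± 1.00, 45.3% ± 1.97 and 21.9% ± 2.89. Of 23 such shares compared between the fetal groups, 19 reached p = 0.1 in a two-sided exact permutation test. That is the smallest p that 3 against 3 libraries allow (adjusted p = 0.121), so that none could pass 0.05. It is reached whenever the groups do not overlap, as the CPM of 68.3% of all genes did not. Shares of a family add up to its total and are not separate tests. In pairs such as B4galt5 and B4galt6 both genes have the same p. The share of Smpd1 had p = 0.2 and that of St8sia5 also p = 0.2 in the same exact test.

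**Figure D5:**
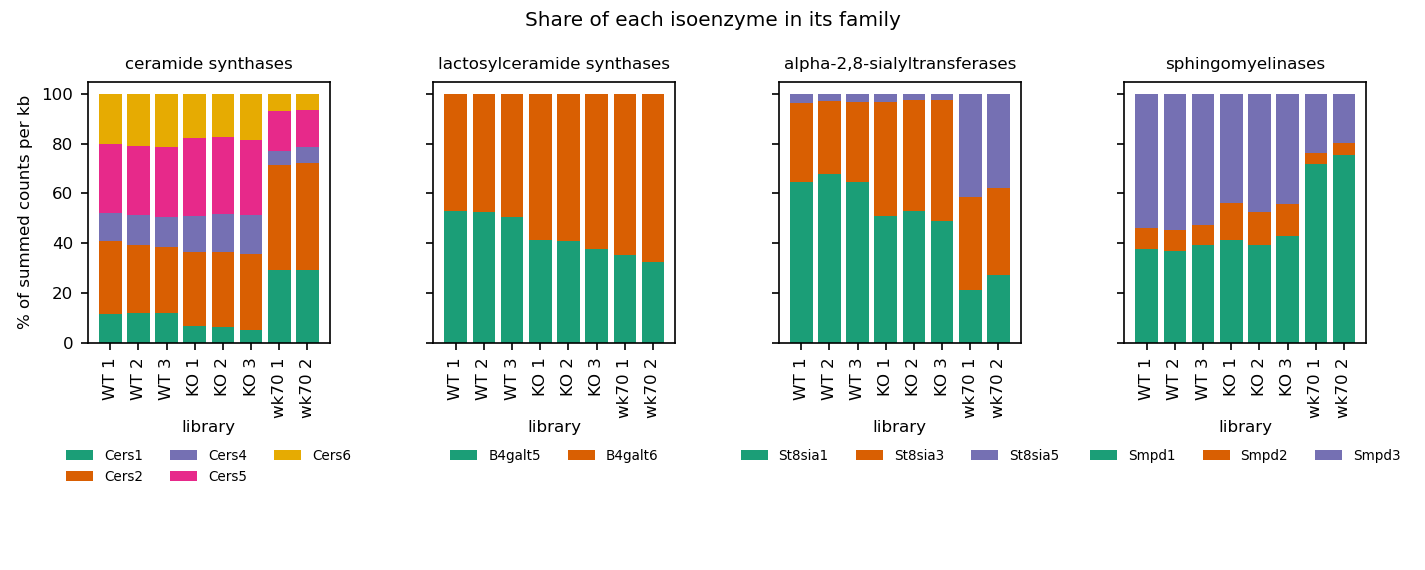
Share of each gene in the summed counts per kilobase of its family of related enzymes, in percent, for each of the 8 libraries. WT and KO are the day 15 libraries and wk70 the KO libraries of week 70. The Cers1, St8sia5 and Smpd1 segments are widest at week 70 (29.2%, 39.6% and 73.7% on average), and St8sia1 is widest in WT (65.6%).

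Set against all 6 fetal libraries, WT included, both week 70 libraries were higher for 24 members, lower for 5 and neither for 9; over the 18893 genes tested in both comparisons, 33% were above and 40.7% below. No test was made, since age and genotype both differ between week 70 and WT. The 5 below were Sptlc2, Cers4, Cers5, Cers6 and Sgpl1. The 9 that were neither included Smpd3, Sphk2, St8sia1 and Sgms2, which had been lower in fetal KO, and Sptssa and Acer3, which had been higher. B4galt5 and Cers1, called in opposite directions in the 2 comparisons at a size of at least 1, were above all fetal libraries at week 70, B4galt5 with 65.2 and 75.1 CPM against 60.3, 58.6 and 63.8 in WT. In all, the 38 genes took 0.165 to 0.175% of counts in WT, 0.156 to 0.159% in fetal KO and 0.188 to 0.194% at week 70.

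The rest of the pathway was read from a list of 46 further sphingolipid genes, of which 45 were in the table. At day 15, 41 were tested, of which 21 were called lower, 5 higher and 15 not called, with a median log2 fold change of -0.41 (corrected -0.20), where 32.5% of all genes were called lower and 30.1% higher. Upper-quartile scaling gave 16 lower and 11 higher, and the correction for length and GC content 15 lower and 7 higher. Psap, the precursor of the saposins that lysosomal hydrolases need, had 426, 415 and 435 CPM in WT and 144, 139 and 125 in KO at day 15 (log2 fold change -1.61 ± 0.07, adjusted p = 2.69e-08). Plpp3, a phosphatase of lipid phosphates, had 84.9, 77.0 and 80.02 CPM in WT and 26.03, 23.1 and 23.4 in KO at day 15 (log2 fold change -1.70 ± 0.07, adjusted p = 2.36e-08). Both fell in every KO library and stayed called after the correction, at -1.24 and -1.51. St3gal1, a sialyltransferase, fell by 0.85, and by 0.19 after the correction (adjusted p = 0.0495). The 3 rises with the smallest adjusted p were those of Ormdl1, an inhibitory partner of serine palmitoyltransferase (0.80 ± 0.11, adjusted p = 0.000127), B3gnt5, which starts the lacto-series glycolipids (0.62 ± 0.09, adjusted p = 0.000195), and Cert1, the ceramide transfer protein (0.51 ± 0.09, adjusted p = 0.000768). After the correction Ormdl1 was 0.16 and not called (adjusted p = 0.19), while B3gnt5 at 0.17 (adjusted p = 0.0444) and Cert1 at 0.38 still were. With age, 43 of these genes were tested, of which 33 were called higher, 7 lower and 3 not called, with a median of 1.2 (corrected 1.06), where 37.6% of all genes were called higher and 44.4% lower. Among them, Neu4 (0, 2 and 1 counts in fetal KO) and Sptssb (8, 5 and 5) passed the filter through week 70 alone. Cers3, with 2 and 4 counts at week 70, passed it through the fetal libraries alone. The calls of Neu4, Sptssb and Cers3 are thus no support. Ugt8a, which makes galactosylceramide, rose from 5.04, 4.73 and 4.47 CPM in fetal KO to 98.0 and 97.2 CPM (log2 fold change 4.26 ± 0.10, adjusted p = 1.52e-10), beside the rises of Fa2h and Gal3st1. Psap and Plpp3 were also higher at week 70, by 3.96 and 4.24. B3gnt5 fell from 85.3, 80.8 and 103 CPM to 1.12 and 0.759 CPM (log2 fold change -6.66 ± 0.21, adjusted p = 6.42e-10), and Ormdl1 and Plekha8, a glycolipid transfer protein, fell by 1.72 and 1.52; Ormdl1 fell by 0.73 after the correction.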

How the data were processed

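Whole-brain polyadenylated RNA of 8 libraries was sequenced after random-hexamer priming, per the labels' protocols. The authors deposited raw read counts per Ensembl gene; FastQC, cutadapt, Trimmomatic, HISAT2, featureCounts and edgeR, and the builds GRCm38 and GRCm39, are named in the submitters' processing notes, without versions or roles, and strand and annotation are not given in the sources used here. Groups came from the sample titles. In edgeR 4.0.16 (R 4.3.3), genes kept by filterByExpr were scaled by TMM and tested with the two-sided quasi-likelihood F-test, adjusted by Benjamini-Hochberg over all genes, with a threshold of 0.05; the fetal comparison used 6 libraries and the comparison of ages 5. CPM in the text were scaled over all 8 libraries, so fold changes can differ slightly from their ratios. The SE of a log2 fold change was derived from its F statistic.

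Each library of 14110031 to 20833397 counts has a floor of 3 counts for a gene at 0, or 0.144 to 0.213 CPM, which covers counting error only. Alternatives were DESeq2 1.42.0, scaling by RLE or the upper quartile, a filter at a mean of 10 counts or none, 1 fit of all 8 libraries, a replicate block, a length and GC correction (mgcv 1.9.3, GENCODE M 21 on GRCm38, 97.3% of genes matched) and each library left out. All scripts were tested on simulated data. Members given in full were, per branch and comparison, the one with the smallest adjusted p and the called one with the largest change at a mean of at least 50 counts, any member not tested, and those called in opposite directions at a log2 size of at least 1. Of the other sphingolipid genes the 3 rises and 3 falls with the smallest adjusted p were named. Other members named were chosen after their values were seen. The members and lists were chosen with earlier results of these data known.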

Additional observations from a re-analysis of the deposited data

How the results depend on the processing

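At day 15, 12 of the 37 members tested kept their direction and their side of the threshold under every alternative run, and 24 of 38 did so in the comparison of ages. The number of members called higher at day 15 was 5 and became 10 with upper-quartile scaling, and those neither above nor below all fetal libraries at week 70 numbered 9 and became 15. Leaving out each library in turn gave 5 members called higher and 15 to 17 lower at day 15, 22 to 25 higher and 6 to 8 lower with age, and 24 to 25 above, 5 to 6 below and 7 to 9 neither at week 70, with 10998 to 11365 genes called at day 15 and 15534 to 16923 with age.

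The replicate numbers of the titles did not pair the samples: same-numbered fetal libraries had correlations of deviations of -0.14, -0.17 and -0.15, and those of the KO groups 0.025 and 0.006. With the replicate number as a block 11184 genes were called at day 15 in place of 11993, and 14876 with age in place of 16390; the members called were 5 higher and 16 lower, and 22 higher and 6 lower. St8sia1 turned to -0.012 with age under the block.

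Without the length and GC correction, directions that turned were those of members with no call, except Ugcg with age under upper-quartile scaling. The correction also turned members that had a call. These were B4galnt1, St8sia5, Smpd2 and Cerk at day 15, and Sptssa, Smpd3 and Sphk2 with age. Smpd2 at day 15 and Sptssa with age were then called in the opposite direction. The cause was not tested. At day 15 upper-quartile scaling turned Sptlc1 (0.15), Ugcg (0.083), Sgms1 (0.028), Galc (0.12) and Hexa (0.015). No filter turned Sptlc2 (-0.0014), Cers2 (-0.028), Cers5 (-0.0033), Acer2 (-0.044) and Gal3st1 (-0.036), and DESeq2 turned Acer2 (-0.0069). The length and GC correction turned Kdsr (-0.027), B4galnt1 (0.022), St8sia5 (0.041), B3galt4 (0.064), Smpd2 (0.29), Sphk1 (0.34), Cerk (0.12) and Hexa (0.088), and together with the block it gave -0.022, 0.025, 0.038, 0.030, 0.29, 0.38, 0.12 and 0.091 for the same genes. With 1 library left out Gal3st1 ranged from -0.12 to 0.25, Acer2 from -0.031 to 0.14 and Sptlc1 from -0.045 to 0.0055.

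With age St8sia1 turned with RLE scaling (-0.026), upper-quartile scaling (-0.24), no filter (-0.0035), a mean of at least 10 counts (-0.021) and DESeq2 (-0.033), and ranged from -0.33 to 0.30 with 1 library left out; Acer3 ranged from -0.14, without week 70 replicate 2, to 0.26. Upper-quartile scaling also turned Ugcg (-0.013), Smpd2 (-0.10), Asah1 (-0.12), Acer3 (-0.18) and Galc (-0.13). The length and GC correction turned Sptssa (0.42), Smpd2 (-0.56), Smpd3 (-0.12) and Sphk2 (-0.21), and with the block 0.41, -0.60, -0.17 and -0.25. Depth limits Fa2h at day 15, where its 0 to 5 counts per library fell under the filter; without that filter DESeq2 gave -0.62 (adjusted p = 0.767).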
